A study of Mus musculus with 10 samples.

Results

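The astrocyte endfoot is the part of the cell that wraps brain vessels, and 7 genes of its membrane complex were followed in the hippocampus of mice treated to ablate the meningeal lymphatic vessels. The genes were chosen by symbol: Aqp4, Dtna, Dag1, Kcnj10, Mlc1, Hepacam and Dmd. All 7 have an entry in the deposited table of 27343 genes. Visudyne mice (5 libraries, numbered 1 to 5) received verteporfin, a light-activated drug, into the cisterna magna, and vehicle mice (5 libraries, numbered 6 to 10) received the carrier. Both groups were wild-type C57BL/6J males aged 2 months, both were exposed above the intact skull to non-thermal red light of 689 nm, and in both the procedure was done again 2 weeks later. All mice then went through a water maze test (MWM in the labels) 2 weeks after that, and the whole hippocampus was taken 3 days later for sequencing of total RNA. Vessel ablation itself was not measured in these data, and vehicle mice had the injections, the light and the maze too.

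Aquaporin-4 is the main water channel of astrocytes and is densest in the endfoot membrane. It is held there by the dystrophin-associated complex, in which dystrophin and alpha-dystrobrevin lie inside the membrane and dystroglycan spans it and binds laminin and agrin outside. The inward rectifier Kir4.1, encoded by Kcnj10, takes up potassium in the same membrane, and the membrane protein MLC1 with its adhesion partner GlialCAM, encoded by Hepacam, sits at contacts between astrocyte processes. AQP4 at the endfoot is also discussed as a route for fluid exchange around brain vessels.

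Of the 6 endfoot genes that could be tested, Dmd rose and Mlc1 and Hepacam fell, while Aqp4, Dtna and Kcnj10 did not pass the test. In the quasi-likelihood test of edgeR across all genes, with Benjamini-Hochberg adjustment and a gene called at an adjusted p under 0.05, 8.98% of the 15938 tested genes were called higher and 11.5% lower, 20.5% in all. The endfoot count of 1 higher and 2 lower out of 6 stands against that background. The median log2 fold change, Visudyne over vehicle, was -0.0003 over the 6 endfoot genes and 0.01 over all tested genes. In whole tissue, fewer cells of a type and less RNA per cell cannot be told apart. The call count over all genes depended on single libraries: 10 genes were called once vehicle 6 was left out, 309 when it was vehicle 9 and 1567 when it was vehicle 7. Leaving out Visudyne 3 gave 27 called genes, Visudyne 1 gave 1119, Visudyne 4 gave 1127, Visudyne 2 gave 1826 and Visudyne 5 gave 5047. No endfoot gene was called without Visudyne 3, vehicle 6 or vehicle 9, 1 was called without Visudyne 4, and 2 to 4 were called without any other single library.

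**Figure D1:**
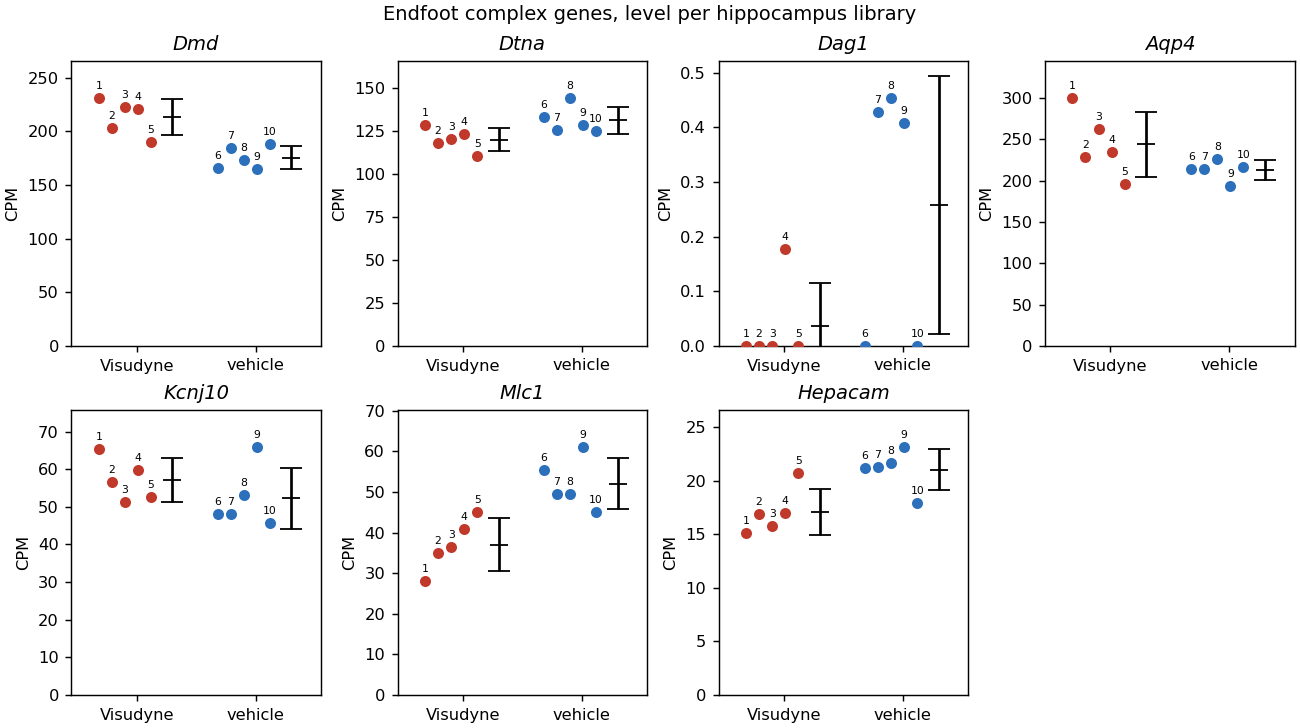
Level of each endfoot gene in CPM with TMM library sizes in every library, with Visudyne left of vehicle; points carry the library number and the bar is the mean ± SD of 5 libraries. The Dmd points of the 2 groups do not overlap, 4 of 5 Visudyne points lie below every vehicle point for Mlc1, Hepacam and Dtna, and Dag1 is at or near 0 throughout.

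Total counts ran from 34548474 to 36956138 in Visudyne libraries and from 24752362 to 41073906 in vehicle libraries, and the mitochondrial ribosomal RNA mt-Rnr2 took 33.6% to 39.7% of counts in Visudyne and 32.2% to 35.7% in vehicle libraries. Counts were scaled to CPM with TMM library sizes, which are set by the bulk of the genes. Scaling by total counts put the median of all log2 fold changes at -0.19, with 196 genes called higher and 3902 lower. Fold changes also followed the GC content of the transcripts: the median log2 fold change was 0.33 for genes of 35 to 40% GC and -0.51 for genes of 60 to 65% GC. For each library, the deviation of log2 CPM from the gene's mean over the 10 libraries was set against GC content. The slope ran from -0.0536 to 0.00079 per GC point in Visudyne libraries and from -0.0020 to 0.0405 in vehicle libraries. A slope of 0 stands for the average library and not for a lack of GC dependence. The slopes were thus mostly lower in Visudyne, and the groups overlapped only through Visudyne 5 (0.00079) and vehicle 10 (-0.0020). Whether the trend came from processing or from the treatment was not tested. The log2 fold change of each tested endfoot gene is therefore also given with this trend removed library by library, where 501 genes were called (3.14% of those tested, 1.45% higher and 1.69% lower). With each library's slope as a covariate 0 genes were called by edgeR, with 1032 at an unadjusted p under 0.05, so no endfoot gene could be called there (0% of genes), and with 1 surrogate variable 1 gene was called (0.00627%), not an endfoot gene.

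Dmd encodes dystrophin, which links the complex to actin inside the cell. Its gene lies at chrX:82948870-85206141 on the plus strand of GRCm38 (ENSMUSG00000045103). The level was 231, 203, 223, 221 and 189.6 CPM in Visudyne 1 to 5 and 166, 184, 174, 165 and 188 CPM in vehicle 6 to 10. Every Visudyne library was above every vehicle library, with Visudyne 5 only just above vehicle 10. The means were 213 ± 16.7 CPM for Visudyne and 175 ± 10.6 CPM for vehicle (± SD, 5 libraries each, here and below). Its log2 fold change was 0.28 ± 0.067 (± SE; edgeR, adjusted p = 0.0266). Groups without overlap in this direction were seen for 5.25% of all tested genes. Dmd transcripts are 41.3% GC, and with the GC trend removed the log2 fold change was 0.02 ± 0.049 (adjusted p = 0.831). It was 0.08 with total counts, 0.17 with a length trend removed and 0.15 with 1 surrogate variable, and was not called in any of these. The call was also lost when Visudyne 3, Visudyne 4, vehicle 6 or vehicle 9 was left out, with log2 fold changes between 0.25 and 0.31 over the 10 fits that left out 1 library.

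Gene-level counts of Dmd join several products. GENCODE M21 lists 14 Dmd transcripts, of which 3 are protein-coding with lengths from 1858 to 14910 bases, and the long and short dystrophins start far apart. The table therefore does not say which dystrophin changed. A testis gene, Tsga8, lies inside Dmd on the opposite strand, and whether the counting used strand is not given in the sources used here.

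Dtna encodes alpha-dystrobrevin, which binds dystrophin and the syntrophins (chr18:23415135-23659715, plus strand; ENSMUSG00000024302). Its level was 129, 118, 120.3, 123 and 110.4 CPM in Visudyne 1 to 5 and 133, 126, 144, 129 and 125 CPM in vehicle 6 to 10. All 5 Visudyne libraries lay below the vehicle mean and 4 below every vehicle library. Means were 120.1 ± 6.74 CPM for Visudyne and 131 ± 7.86 CPM for vehicle, and the log2 fold change of -0.13 ± 0.060 did not pass the test (adjusted p = 0.126). At 43.3% GC, the GC trend for Dtna was higher in Visudyne than in vehicle libraries, by 0.21 on the log2 scale. With the trend removed Dtna fell, to 112 ± 3.18 CPM in Visudyne against 142 ± 13.5 CPM in vehicle, a log2 fold change of -0.34 ± 0.065 (edgeR, adjusted p = 0.0294). The levels with the trend removed ran from 106.8 to 115 CPM in Visudyne and from 124 to 158 CPM in vehicle, so the groups no longer overlapped. Overlap-free groups in this direction made up 4.5% of tested genes after removal. When 1 library was also left out, the call with the trend removed held only without Visudyne 5 or vehicle 10, and the log2 fold change stayed between -0.39 and -0.30 in all 10 fits. Dtna was also called lower with total counts (-0.34, adjusted p = 0.0221) and with a length trend removed (-0.21, adjusted p = 0.0411).

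Dag1 encodes dystroglycan, the receptor that ties the complex to the basement membrane (chr9:108204634-108263958, minus strand; ENSMUSG00000039952). It is listed with 0, 0, 0, 6 and 0 counts in Visudyne 1 to 5 and 0, 15, 20, 16 and 0 counts in vehicle 6 to 10. These come to at most 0.177 CPM in a Visudyne library and 0.453 CPM in a vehicle library. Dag1 is listed at 0 in 6 of 10 libraries. Dag1 did not pass the filter on low counts and was not tested, and no fold is given. Without the filter its adjusted p was 0.136 in edgeR. An entry of 0 in a table of estimated counts need not mean that the transcript was absent. Other genes known from brain were also near 0. Mag, a myelin gene, reached at most 0.318 CPM in Visudyne and 0.634 CPM in vehicle libraries, the syntrophin gene Sntb2 at most 0.130 CPM in Visudyne and 0.0855 CPM in vehicle libraries, and Hspg2, which encodes perlecan, at most 0.130 CPM in Visudyne and 0.636 CPM in vehicle libraries. These genes were picked out after their values were seen.

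Aqp4 (chr18:15389496-15410982, minus strand; ENSMUSG00000024411) had 299.97, 228, 262, 234 and 196 CPM in Visudyne 1 to 5 and 215, 214, 226, 193 and 217 CPM in vehicle 6 to 10. Visudyne 1 to 4 lay above every vehicle library and Visudyne 5 below all vehicle libraries but vehicle 9. Means were 244 ± 39.1 CPM for Visudyne and 213 ± 11.97 CPM for vehicle, and the log2 fold change of 0.20 ± 0.098 did not pass the test (edgeR, adjusted p = 0.153). The spread between Visudyne libraries was 16.0% of their mean, against 5.62% between vehicle libraries. Without Visudyne 5 the log2 fold change was 0.26 and Aqp4 was called (adjusted p = 0.0331). With the GC trend removed it was 0.14 (adjusted p = 0.411), and it was -0.02 with total counts and -0.14 with the GC slope as covariate. The direction of Aqp4 therefore differed between these settings.

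Kcnj10, the Kir4.1 gene (chr1:172341210-172374085, plus strand; ENSMUSG00000044708), had 65.4, 56.6, 51.2, 59.9 and 52.5 CPM in Visudyne 1 to 5 and 48.2, 48.1, 53.2, 65.8 and 45.7 CPM in vehicle 6 to 10. Vehicle 9 held the highest value of all, and of the other 4 vehicle libraries only vehicle 8 lay within the Visudyne range. Means were 57.1 ± 5.75 CPM for Visudyne and 52.2 ± 8.08 CPM for vehicle, with a log2 fold change of 0.13 ± 0.10 that did not pass the test (edgeR, adjusted p = 0.362). Its GC content of 49.6% is close to the 49.0% median of tested genes, and removing the trend gave 0.17 (adjusted p = 0.336). With total counts the value was -0.08. The ratio of Aqp4 to Kcnj10 CPM was 4.28 ± 0.568 in Visudyne and 4.17 ± 0.709 in vehicle, and the groups overlapped. Removing the GC trend gave 4.13 ± 0.481 in Visudyne and 4.29 ± 0.676 in vehicle, so that the sign of the difference turned.

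Mlc1 encodes the membrane protein whose loss causes megalencephalic leukoencephalopathy with subcortical cysts in humans (chr15:88955884-88979007, minus strand; ENSMUSG00000035805). The level was 28.0, 34.9, 36.3, 40.9 and 45.02 CPM in Visudyne 1 to 5 and 55.4, 49.4, 49.4, 61.0 and 44.98 CPM in vehicle 6 to 10. Visudyne 1 to 4 lay below every vehicle library, and Visudyne 5 was level with vehicle 10, the lowest of its group. Means were 37.0 ± 6.44 CPM for Visudyne and 52.1 ± 6.23 CPM for vehicle, a log2 fold change of -0.49 ± 0.119 and a fold of 0.712 (edgeR, adjusted p = 0.0266). Of the 3 called endfoot genes, Mlc1 moved by the most. With the GC trend removed Mlc1 was still called lower, at a log2 fold change of -0.35 ± 0.080 (adjusted p = 0.0429). The levels with the trend removed were 32.7 to 43.3 CPM for Visudyne and 44.4 to 53.6 CPM for vehicle, without overlap. Such groups in this direction made up 4.5% of tested genes after removal. When 1 library was also left out, that call held only without Visudyne 5 or vehicle 10. With the trend in place, Mlc1 was no longer called without Visudyne 3, vehicle 6 or vehicle 9, where the adjusted p lay between 0.060 and 0.074, nor with 1 surrogate variable, where the log2 fold change was -0.19. With the slope covariate it was -0.04 (adjusted p = 0.950).

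Hepacam encodes GlialCAM, the adhesion protein that brings MLC1 to cell contacts (chr9:37367351-37386575, plus strand; ENSMUSG00000046240). Its level was 15.1, 16.9, 15.8, 16.9 and 20.7 CPM in Visudyne 1 to 5 and 21.2, 21.3, 21.6, 23.1 and 17.9 CPM in vehicle 6 to 10. As for Mlc1, Visudyne 1 to 4 lay below every vehicle library, Visudyne 5 was the highest of its group and vehicle 10 the lowest of its own. Means were 17.1 ± 2.14 CPM for Visudyne and 21.02 ± 1.91 CPM for vehicle, a log2 fold change of -0.30 ± 0.093 (edgeR, adjusted p = 0.0420). That call was not firm, since it held only without Visudyne 5 or vehicle 10 among the 10 fits that left out 1 library, with adjusted p up to 0.098. Hepacam also missed the threshold with no filter on low counts (adjusted p = 0.0581), with a length trend removed (0.0591) and with 1 surrogate variable (0.529). At 54.5% GC, Hepacam has the highest GC content of the 7 genes, and with the trend removed its log2 fold change was -0.02 (adjusted p = 0.904). Within a library the ratio of Mlc1 to Hepacam was 2.16 ± 0.219 in Visudyne and 2.48 ± 0.165 in vehicle, and with the GC trend removed 2.07 ± 0.289 in Visudyne and 2.60 ± 0.260 in vehicle. The groups overlapped in both.

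**Figure D2:**
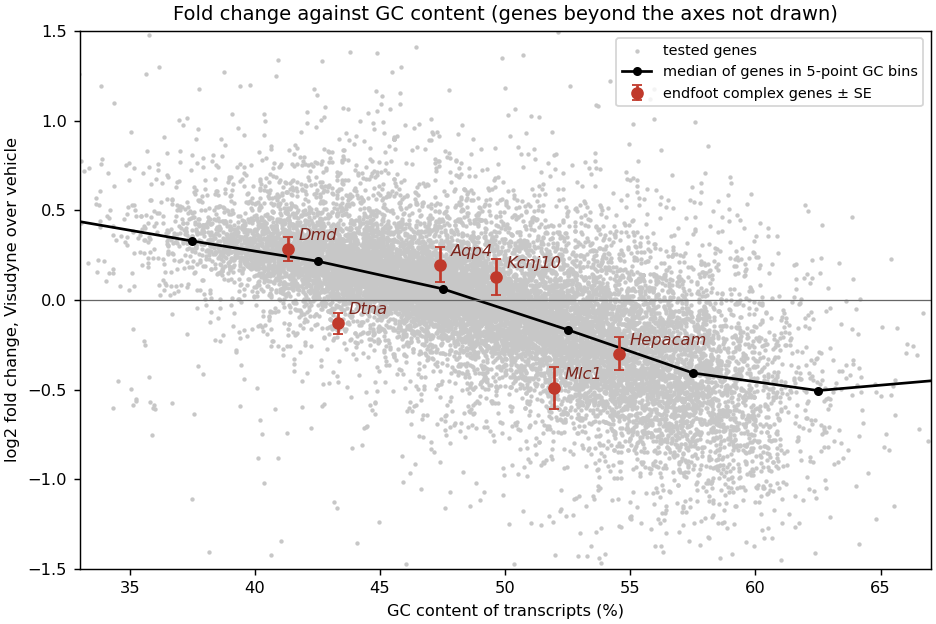
Log2 fold change, Visudyne over vehicle, against the GC content of each gene's transcripts in percent; grey points are tested genes, the black line joins medians of bins of 5 GC points and red points are the 6 tested endfoot genes ± SE. Dmd and Hepacam lie on the trend at 41.3% and 54.5% GC, while Dtna and Mlc1 lie below it.

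**Figure D3:**
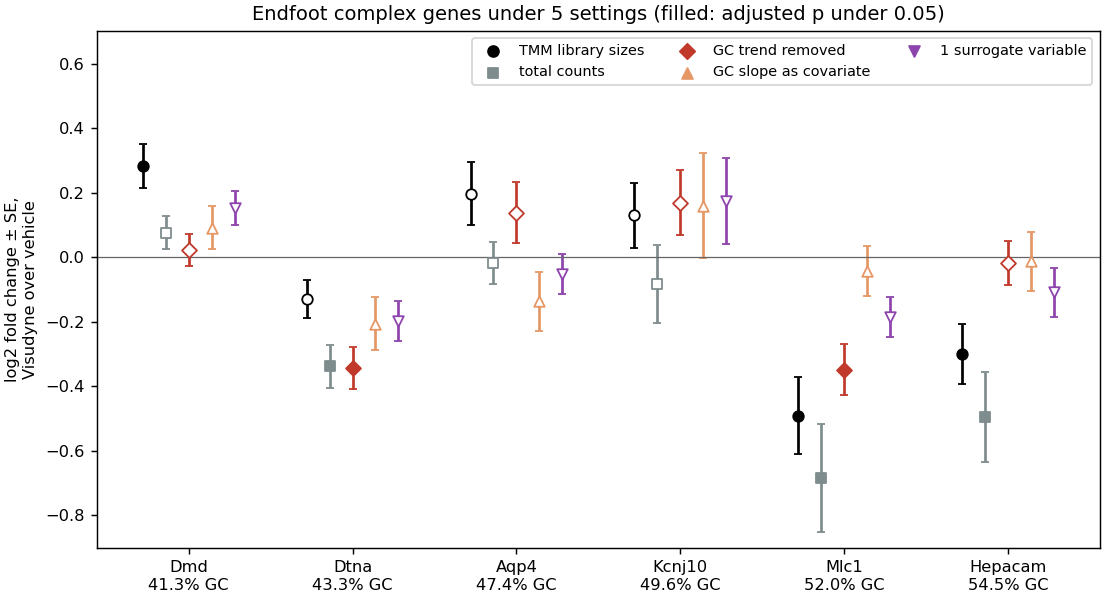
Log2 fold change ± SE of each tested endfoot gene under 5 settings, ordered by GC content; filled symbols have an adjusted p under 0.05. Dmd and Hepacam are filled with TMM library sizes and open once the GC trend is removed, Dtna is open and then filled, Mlc1 is filled in both, and every symbol is open with the slope covariate and with 1 surrogate variable.

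The size of the GC trend differed between the genes. The loess trend alone amounted to 0.26 of the log2 fold change of 0.28 for Dmd and to -0.29 of -0.30 for Hepacam. For Mlc1 it amounted to -0.15 of -0.49, for Aqp4 to 0.06 of 0.20 and for Kcnj10 to -0.04 beside 0.13. For Dtna it was 0.21 and ran against the change. The 2 endfoot genes called after removal, Dtna and Mlc1, were both lower, where 1.69% of all tested genes were called lower.

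Dmd and Dtna encode binding partners with nearly the same GC content, and their log2 fold changes had opposite signs. The ratio of Dmd to Dtna CPM was 1.79, 1.72, 1.85, 1.79 and 1.72 in Visudyne 1 to 5 and 1.25, 1.47, 1.20, 1.28 and 1.51 in vehicle 6 to 10. All Visudyne ratios were above all vehicle ratios, and they varied less, 1.77 ± 0.056 in Visudyne against 1.34 ± 0.136 in vehicle. A ratio within a library does not depend on library size. With the GC trend removed the ratio was 1.74 ± 0.052 in Visudyne and 1.36 ± 0.123 in vehicle, still without overlap. The difference between the log2 fold changes of Dmd and Dtna lay between 0.30 and 0.46 in the unaltered fit and all 33 other settings. Settings that change only the library size factors had to leave this difference nearly as it was, so they are no check of it. This pair was picked after the values had been seen, so the ratio is a description and carries no test. A ratio shows unequal change and not which of the 2 genes changed.

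**Figure D4:**
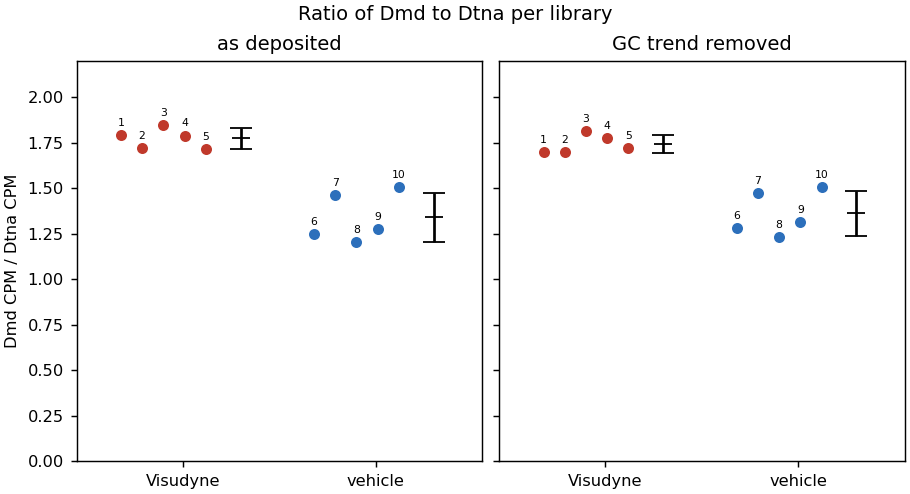
Ratio of Dmd CPM to Dtna CPM in each library, Visudyne left of vehicle, from the deposited counts (left) and with the GC trend removed (right); bars are the mean ± SD of 5 libraries. The Visudyne ratios lie between 1.72 and 1.85 and the vehicle ratios between 1.20 and 1.51 before the trend is removed.

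Levels were compared between genes per kilobase of exon, as CPM per kb. Aqp4 stood highest, at 39.2 ± 6.27 in Visudyne and 34.2 ± 1.92 in vehicle. Mlc1 followed at 13.2 ± 2.30 in Visudyne and 18.6 ± 2.22 in vehicle, and Kcnj10 at 10.6 ± 1.06 in Visudyne and 9.66 ± 1.49 in vehicle. Dmd had 8.96 ± 0.702 in Visudyne and 7.37 ± 0.444 in vehicle, Dtna 7.09 ± 0.398 in Visudyne and 7.76 ± 0.464 in vehicle, and Hepacam 5.10 ± 0.640 in Visudyne and 6.28 ± 0.572 in vehicle. Dag1 reached at most 0.0279 CPM per kb in Visudyne and 0.0713 in vehicle libraries. In Visudyne the intervals of mean ± SD overlapped for the neighbours Mlc1 and Kcnj10 and for Kcnj10 and Dmd. In vehicle they overlapped for Kcnj10 and Dtna and for Dtna and Dmd. Exon length here is that of all annotated exons of a gene together, which can understate genes with many alternative exons such as Dmd and Dtna.

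The tissue was checked against markers of its cell types, none of which was at 0 in all libraries. The 15 astrocyte markers summed to 5812 to 7122 CPM in Visudyne and 5589 to 6513 CPM in vehicle libraries, with Sox9, an astrocyte transcription factor, higher and S100b and Acsbg1 lower. Removing the GC trend left 1 astrocyte marker called higher and 1 lower. The mean log2 level of the astrocyte markers was itself 6.18 ± 0.227 in Visudyne and 6.40 ± 0.133 in vehicle, with overlap. This difference of -0.22 enters each value set against that mean. Set against the mean log2 level of these markers in the same library, Dmd differed by 0.50 between Visudyne and vehicle, Aqp4 by 0.40, Kcnj10 by 0.36, Dtna by 0.09, Hepacam by -0.08 and Mlc1 by -0.28, and the groups overlapped for each of the 6. The GC trend was not removed from these values. The 10 neuron markers summed to 3988 to 4718 CPM in Visudyne and 3807 to 4227 CPM in vehicle. Of them 1 was higher and 1 lower, and 1 was lower with the trend removed. Of 7 tested oligodendrocyte markers 4 were lower, and 2 with the trend removed, the set summing to 2180 to 2602 CPM in Visudyne and 2258 to 3038 CPM in vehicle. The 8 microglia markers summed to 194 to 235 CPM in Visudyne and 174 to 199 CPM in vehicle. Of them 1 was higher and 1 lower, and 0 were called by edgeR with the trend removed. The 8 endothelial markers summed to 107 to 122 CPM in Visudyne and 98.4 to 116 CPM in vehicle, with 1 higher, and 0 called by edgeR with the trend removed. The 7 pericyte and smooth muscle markers summed to 109 to 122 CPM in Visudyne and 87.2 to 109 CPM in vehicle, with 1 higher and 3 lower, and 0 called by edgeR with the trend removed. Over all tested genes the called shares were 8.98% higher and 11.5% lower, and with the trend removed 1.45% higher and 1.69% lower. Choroid plexus markers summed to 1474 CPM in Visudyne 3 and 931 CPM in Visudyne 5, and to 184 to 240.8 CPM in vehicle libraries. The counts are of the whole hippocampus, so the endfoot values cannot be assigned to astrocytes alone. The part of these cell types in the endfoot values was not tested.

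RefSeq promoters on GRCm38.p6, each of 300 bases around a start, were found for 5 of the 7 genes. Those of the 3 genes called with TMM library sizes are printed. Of Dmd the 2 starts found are shown, which need not be all of its starts, because the counts cannot separate long from short dystrophins. Capitals mark CG dinucleotides, and each run reads in the gene's direction. The Hepacam window is chr9:37367356-37367655 on the plus strand and the Mlc1 window chr15:88978504-88978803 on the minus strand. Of Dmd, the upstream window is chrX:82948620-82948919 and the internal one chrX:85048045-85048344, both on the plus strand and 2099425 bases apart.
Hepacam: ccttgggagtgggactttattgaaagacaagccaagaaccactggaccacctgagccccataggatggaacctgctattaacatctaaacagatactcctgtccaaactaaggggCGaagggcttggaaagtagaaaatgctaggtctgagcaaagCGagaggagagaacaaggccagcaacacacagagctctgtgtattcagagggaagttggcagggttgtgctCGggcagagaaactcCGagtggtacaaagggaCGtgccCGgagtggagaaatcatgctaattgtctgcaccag
Mlc1: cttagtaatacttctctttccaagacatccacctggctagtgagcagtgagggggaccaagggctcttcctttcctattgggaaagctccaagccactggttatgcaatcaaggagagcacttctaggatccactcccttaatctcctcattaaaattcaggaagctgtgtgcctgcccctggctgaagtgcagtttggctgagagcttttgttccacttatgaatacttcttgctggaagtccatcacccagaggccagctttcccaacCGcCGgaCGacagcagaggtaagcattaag
Dmd upstream start: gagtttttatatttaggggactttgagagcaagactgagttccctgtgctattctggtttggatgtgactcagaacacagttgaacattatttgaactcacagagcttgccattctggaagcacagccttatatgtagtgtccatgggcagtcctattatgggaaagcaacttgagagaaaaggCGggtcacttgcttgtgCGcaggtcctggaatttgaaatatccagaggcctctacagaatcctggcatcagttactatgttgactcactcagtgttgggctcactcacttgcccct
Dmd internal start: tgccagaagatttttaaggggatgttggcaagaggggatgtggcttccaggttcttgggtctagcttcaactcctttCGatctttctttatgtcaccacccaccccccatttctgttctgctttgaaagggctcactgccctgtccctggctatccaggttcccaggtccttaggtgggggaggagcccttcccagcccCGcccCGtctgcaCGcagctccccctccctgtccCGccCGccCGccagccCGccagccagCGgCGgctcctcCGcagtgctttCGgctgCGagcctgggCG
Counting CG on either strand, the Hepacam promoter holds 6, the Mlc1 promoter 3, the upstream Dmd promoter 2 and the internal Dmd promoter 14, where the median of 32851 promoters is 7. At least as many were found in 56.4% of all promoters for Hepacam, 76.7% for Mlc1, 85.9% for the upstream and 36.3% for the internal Dmd start. These windows had a GC content of 50.7%, 49.7%, 45.7% and 62.7% in the order printed, and the median promoter 52.7%. These 2 Dmd starts thus differ widely in base composition, and the deposited counts do not show how Dmd reads were shared between starts.

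For each endfoot gene the 3 genes with the most similar profile over the 10 libraries were sought among 11679 tested genes averaging 1 CPM or more, by the root mean square difference of centred log2 CPM. Aqp4 was nearest to Kdm7a at 0.0419, then Tab3 and Isoc1. Dtna was nearest to Cmya5 at 0.0268, then Luzp1 and Tgfa. Kcnj10 was farther from its nearest gene, Zmiz1 at 0.0895, then Rbm4 and Med12l. Mlc1 was nearest to Grk6 at 0.0350, then Pfkm and Cndp2, and Hepacam to Kbtbd4 at 0.0429, then Tmem106c and Stat3. Dmd was nearest to Zfp26 at 0.0253, then Iws1 and Prkdc. Most of these neighbours depended on the GC trend. With it removed the nearest gene was Wasl for Aqp4, Sptb for Dtna, Mast4 for Kcnj10, Kars for Mlc1 and Tmem106c for Hepacam. Zfp26 stayed nearest to Dmd. No endfoot gene was among the 3 nearest of another, before or after removal.

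Related genes were read from 6 lists. Of 15 tested other genes of the dystrophin complex (18 listed), 1 rose and 2 fell, with a median log2 fold change of -0.02. Sntg1, a neuronal syntrophin, rose by 0.24 and Plec, the cytoskeletal linker plectin, fell by 0.67 on the log2 scale, and neither was called with the trend removed. The sarcoglycan gene Sgcb missed the threshold at 0.23 (adjusted p = 0.0562). Utrn, the dystrophin relative utrophin, stood at 26.4 ± 1.69 CPM for Visudyne and 26.9 ± 3.16 CPM for vehicle.

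Outside the membrane, 2 of 16 tested genes listed as basement membrane ligands rose and 3 fell, with a median of -0.21. Most genes of this list encode basement membrane proteins. Lama1, a laminin alpha chain, had 0.923 ± 0.180 CPM for Visudyne and 1.68 ± 0.362 CPM for vehicle (log2 fold change -0.85, adjusted p = 0.0266), and Agrn, encoding agrin, 14.6 ± 1.44 CPM for Visudyne and 19.0 ± 2.50 CPM for vehicle (-0.38, adjusted p = 0.0294). Nid2, which encodes the linker nidogen-2, rose to 1.38 ± 0.288 CPM in Visudyne against 0.867 ± 0.150 CPM in vehicle (0.68, adjusted p = 0.0345). The third gene lower was Lamc1, a laminin gamma chain, at -0.29 (adjusted p = 0.0430), which is named to complete the count. With the GC trend removed Nid2 was called, at 0.98, Lama1 and Lamc1 were not, and Agrn was not called and changed direction to 0.03. The enzymes that build the laminin-binding sugar of dystroglycan had 0 of 16 tested members higher by edgeR and 3 lower, with a median of -0.12. At an unadjusted p under 0.05, 1 was higher and 5 lower, where 6349 of all 15938 tested genes were under 0.05. DESeq2 and limma-voom called 0 higher, and limma-voom with library weights called 1 higher. Over all genes these 3 called 2029, 1481 and 1936 higher. The 3 lower genes were Gmppb and Gmppa, which act in the synthesis of GDP-mannose, and the glycosyltransferase gene Pomgnt1, at -0.93, -0.79 and -0.48, and Gmppb was still called with the trend removed (-0.63, adjusted p = 0.0470).

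Partners of MLC1 and GlialCAM had 1 of 10 tested members higher and 3 lower, with a median of -0.12. Gprc5b, a G protein-coupled receptor that binds GlialCAM, had the smallest adjusted p of the list: 49.7 ± 4.22 CPM in Visudyne against 68.6 ± 6.52 CPM in vehicle, a log2 fold change of -0.47 ± 0.080 (edgeR, adjusted p = 0.0201). With the trend removed it was -0.22 (adjusted p = 0.109). Clcn2, the ClC-2 chloride channel that GlialCAM binds, fell by 0.58 on the log2 scale, and was -0.15 with the trend removed (adjusted p = 0.383). Atp1b1, a sodium pump beta subunit, rose to 1036 ± 61.1 CPM in Visudyne against 889 ± 34.2 CPM in vehicle, and was called with and without the trend (0.22 and 0.35).

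Of 13 astrocyte genes of potassium and glutamate clearance, 2 rose and 0 fell by edgeR, with a median of 0.10. At an unadjusted p under 0.05, 5 were higher and 0 lower, and DESeq2 called 4 higher and 0 lower. Of all 15938 tested genes, 6349 had an unadjusted p under 0.05, and DESeq2 called 2029 higher and 2451 lower. Kcnj16, encoding the Kir5.1 subunit that pairs with Kir4.1, rose to 23.7 ± 2.46 CPM in Visudyne against 16.6 ± 1.45 CPM in vehicle without overlap (0.52 ± 0.085, edgeR, adjusted p = 0.0181). Such groups in this direction made up 5.25% of all tested genes. With the trend removed Kcnj16 was 0.30 (adjusted p = 0.0611). Slc12a2, the cotransporter NKCC1, rose by 0.28 and was not called with the trend removed, at 0.04. Of 11 other aquaporins listed, 7 had an entry, 3 were tested and 0 were called by edgeR, with Aqp11 at -0.85, Aqp9 at 0.20 and Aqp7 at 0.67 and adjusted p from 0.188 to 0.390. None of the 3 had an unadjusted p under 0.05 or was called by DESeq2 or limma-voom. Aqp7 alone was called when vehicle 10 was left out (edgeR, adjusted p = 0.0454). Of the 23 related genes picked by rule 16 were called, a share set by the rule, which took the genes of smallest p. Over all tested genes the share was 20.5%. Leaving out Visudyne 3 or vehicle 6 left no call among those 16, vehicle 9 left 2, Visudyne 1 and Visudyne 4 left 5 each, Visudyne 2 left 9 and vehicle 7 left 10. No gene of any of the 6 lists was called without Visudyne 3 or vehicle 6. Without Visudyne 5 the called genes numbered 4 in the other dystrophin complex and 9 among basement membrane ligands. The same fit called 5 in glycosylation, 6 among MLC1 partners and 5 in clearance. With the GC trend removed 3 of the 16 were called and 14 had the same direction.

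**Figure D5:**
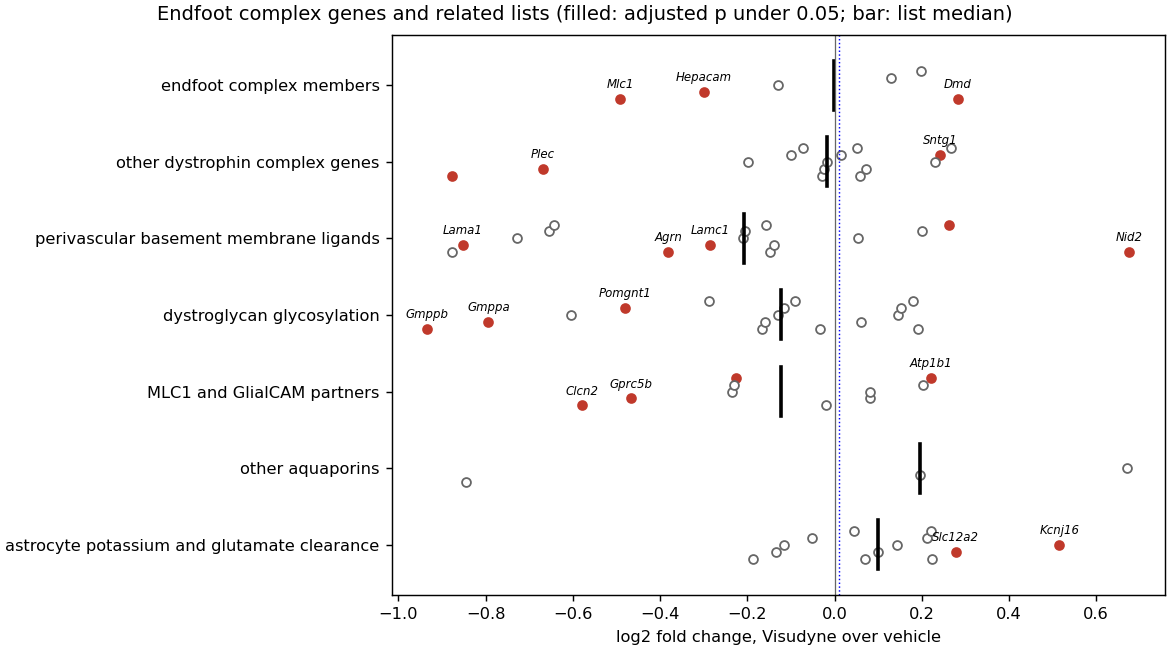
Log2 fold change, Visudyne over vehicle, of every tested gene of the endfoot complex and the 6 related lists; filled points have an adjusted p under 0.05 and most of them are named, black bars are list medians and the dotted line is the median of all tested genes (0.01). List medians lie between -0.21 and 0.20, and called genes lie on both sides of 0 in the endfoot complex, the other dystrophin complex genes, the basement membrane ligands and the MLC1 partners.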

How the data were processed

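RNA of the whole hippocampus was sequenced in 10 libraries, 5 Visudyne and 5 vehicle, prepared with a kit that keeps strand, per the labels. The deposited table, 1 for all libraries, holds estimated counts that the authors had rounded. FastQC, Salmon and the mm10 build are named in the submitters' processing notes. The annotation used, how transcripts were summed and whether strand was used is not given in the sources used here. A gene listed at 0 by Salmon can be a failed estimate.

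GENCODE M21 (GRCm38) gave symbols, coordinates, exon lengths and GC content (27053 of 27343 identifiers found, 290 not). Visudyne was tested against vehicle in R 4.3.3 by edgeR 4.0.16 (two-sided quasi-likelihood test, filterByExpr, TMM, no covariates), adjusted over 15938 tested genes by Benjamini-Hochberg. The SE is the log2 fold change over the square root of F. Per-library GC trends were removed by loess (span 0.3) through offsets, GC content being known for 15829 tested genes. Python 3.11.15, numpy 2.4.6, pandas 2.3.3 and matplotlib 3.10.9 made the tables and figures. In a simulation of these 15938 genes, edgeR called 50 of 100 genes given a 1.5-fold change, 72 of 100 given a 2-fold change, and 6 of 15738 left alone. The simulation drew each gene on its own, without a GC trend or another shift shared by the genes of a library. It therefore does not give the rate of false calls in the real libraries.

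Alternatives were other library size factors and filters, DESeq2 1.42.0, limma-voom (limma 3.58.1), 1 surrogate variable (sva 3.50.0), GC and length trends, omitting mitochondrial genes, and omitting each library, the last also with the GC trend removed (added after seeing the data). No 2 libraries of a group agreed within sampling noise (lowest chi-square per degree of freedom, 12.3). The labels do not say that each library is a separate mouse and give no batch, so p-values measure the spread between libraries, which may in part be technical.

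The endfoot genes and the related lists were chosen with earlier results of these data known. The rule named all endfoot genes, up to 4 tested genes of smallest p in each related list, and the 3 profiles nearest to each endfoot gene. Some genes that the rule picked are not reported here and were not replaced, and they stayed in every fit and count.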

Additional observations from a re-analysis of the deposited data

Results flagged for a closer look

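A library was singled out when its gap to the nearest of the other 4 in its group exceeded Dixon's limit of 0.71 of the group's range. Chance gives about 1 in 20 groups, and 9 of 98 groups examined met the limit. Among the endfoot genes these were Dag1, listed at 0.177 CPM in Visudyne 4 and at 0 in the other 4 Visudyne libraries, and the ratio of Aqp4 to Kcnj10, at 2.94 in vehicle 9 and 4.25 to 4.74 in the other vehicle libraries. For Dag1 any count above 0 would have met the limit, because the other 4 values were 0. Of the related genes, Sntg1 was low in Visudyne 5 at 40.2 CPM (44.8 to 46.7 in the others), Nid2 high in Visudyne 3 at 1.88 CPM (1.19 to 1.33) and Pomgnt1 low in Visudyne 1 at 7.10 CPM (9.46 to 10.2). Of the marker sums, endothelial markers were low in Visudyne 2 at 107 CPM (119 to 122), pericyte and smooth muscle markers high in Visudyne 1 at 122 CPM (109 to 111), and in vehicle 9 both microglia markers at 174 CPM (194 to 199) and choroid plexus markers at 184 CPM (232 to 240.8) were low. The causes were not tested.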

How the results depend on the processing

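Of the 13 settings other than leaving out a library, 9 kept the count of 3261 called genes within 1.5 times. The exceptions were 2075 with no filter on low counts, 501 with the GC trend removed, 0 with the GC slope as covariate and 1 with 1 surrogate variable. Endfoot genes called numbered 0 with the covariate and 0 with the surrogate variable. Leaving out 1 library, with or without the GC trend, gave 4 to 5047 called genes and 0 to 4 endfoot genes, and Hepacam ran from -0.39 to 0.025 on the log2 scale. Direction changed with total counts for Aqp4 (-0.0189), Kcnj10 (-0.0837) and Aqp9 (-0.00692). It changed with the GC slope as covariate for Aqp4 (-0.137), Sgcb (-0.00297), Plec (0.172), Dpm2 (0.133), Gmppa (0.00773) and Gja1 (-0.0231), with the trend removed for Agrn (0.0265), and with 1 surrogate variable for Aqp4 (-0.0529). Dtna, Mlc1 and Dmd kept their direction in all 33 settings run. The cause of these shifts was not tested. No paired analysis was possible because the libraries are numbered 1 to 5 in Visudyne and 6 to 10 in vehicle, so no number is shared. Dag1 had at most 20 counts in a library and was not tested.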

Other observations

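Aqp1, the aquaporin of the choroid plexus, was not tested among the other aquaporins because of its low counts. Its counts were 0, 1, 42, 1 and 46 in Visudyne 1 to 5 and 2, 2, 3, 5 and 1 in vehicle 6 to 10. The choroid plexus gene Ttr had 304 CPM in Visudyne 3 and 229 CPM in Visudyne 5, 1.146 to 2.01 CPM in the other Visudyne libraries and 1.83 to 8.03 CPM in vehicle libraries. Aqp1 and Ttr were named after their values had been seen. In the same 2 libraries Aqp4 had 262 and 196 CPM, the second highest and the lowest values of the Visudyne group.

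Nos1 and Lama2, from the related lists, were not called until the GC trend was removed, and are named for that reason after the values had been seen. Nos1, neuronal nitric oxide synthase, which binds syntrophin, had a log2 fold change of 0.05 before removal and 0.37 after it (edgeR, adjusted p = 0.0250). Lama2, the laminin chain whose loss causes a congenital muscular dystrophy in humans, had -0.20 before and -0.34 after (adjusted p = 0.0467).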
